A study of Mus musculus with 4 samples.

Results

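Of the 5302 peaks found only in the induced list on mouse chromosomes 1 to 19 and X, 501 lay within 1 kb of a border of at least 2 different protein-coding genes. A border is the start or the end of a gene. These 501 peaks are the members described here, and they were chosen by measured values: a peak of the induced list that overlaps no peak of the non-induced list by 1 bp or more, at any score. They made up 9.45% of those 5302 peaks (exact 95% interval 8.68% to 10.3%), among 16029 peaks in both lists. At 482 members the peak served 2 genes and at 19 it served 3.

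The cells were mouse embryonic fibroblasts (MEFs), a primary culture from embryos, from a gain-of-function model that overexpresses HA-tagged Fbxl10, a protein also called Kdm2b. The induced cells were given 1 µg/ml doxycycline for 48 hours and the non-induced cells were not. Both carry the same HA-Fbxl10 genotype in their labels, and no cells without it were analysed here. Chromatin immunoprecipitation with an HA antibody followed by sequencing (ChIP-seq) gave 1 peak list per condition, and the 2 input libraries were not analysed here. The promoter that drives the transgene and the relation of the lists to the 3 independent samples of the protocol are not stated in the labels. Each condition has a single list, so there is no replicate check and no test. Read depth is unknown, and every interval is an exact Clopper-Pearson interval at 95% that covers counting error only. Peak lists hold no expression, so they cannot check the cell type. Of 9 fibroblast marker genes Thy1, Vim and Fn1 had an induced-only peak within 1 kb of a border, and 0 lay at a member. Over all protein-coding genes these shares were 13.4% and 4.52%, so counts among 9 genes say little. Kdm2b (chr5:122870664-122989270, gene 30841) had 0 induced-only peaks at its borders.

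Fbxl10 is a histone demethylase of the JmjC family. Its CXXC zinc finger binds DNA with unmethylated CpG, the sequence class that forms CpG islands at many promoters, and it brings a variant Polycomb repressive complex to such islands. Mammalian genes often lie head-to-head, with their starts on opposite strands a short distance apart, so that a single CpG island serves as the promoter of both. Pairs of this kind are rich in genes for DNA repair, mitochondria and basic gene expression. A peak over such a promoter cannot be assigned to either gene from its position alone.

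The promoters below show what the members look like in sequence. Each runs from 250 bases before to 50 bases after a RefSeq start (GRCm38.p6), 5′ to 3′ along the strand of the named gene, with every CpG in capitals. The gene's own start is base 251, counted from 1 at the left. Mrpl51 and Ncapd2 form the highest-scoring head-to-head member with a known strand and a peak score of 318.54 (Mrpl51 at chr6:125191950-125192249, plus strand, 18 CpG, start of Ncapd2 at base 151). Plekhj1 and Sf3a2 (chr10:80798577-80798876, minus strand, 41 CpG, start of Sf3a2 at base 142, score 199.3) and Ranbp1 and Trmt2a (chr16:18248645-18248944, minus strand, 42 CpG, start of Trmt2a at base 98, score 185.68) are shown for their dense CpG, above the upper quartile of 31 at promoters of head-to-head pairs with a member (median 25, lower quartile 19). These 3 windows lie wholly inside their peaks.
Mrpl51: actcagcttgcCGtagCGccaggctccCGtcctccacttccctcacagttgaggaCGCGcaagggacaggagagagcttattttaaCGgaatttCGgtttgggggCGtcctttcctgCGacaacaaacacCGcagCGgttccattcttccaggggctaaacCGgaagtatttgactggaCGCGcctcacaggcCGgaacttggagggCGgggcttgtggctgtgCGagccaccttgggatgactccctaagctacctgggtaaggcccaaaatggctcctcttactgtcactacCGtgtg
Plekhj1: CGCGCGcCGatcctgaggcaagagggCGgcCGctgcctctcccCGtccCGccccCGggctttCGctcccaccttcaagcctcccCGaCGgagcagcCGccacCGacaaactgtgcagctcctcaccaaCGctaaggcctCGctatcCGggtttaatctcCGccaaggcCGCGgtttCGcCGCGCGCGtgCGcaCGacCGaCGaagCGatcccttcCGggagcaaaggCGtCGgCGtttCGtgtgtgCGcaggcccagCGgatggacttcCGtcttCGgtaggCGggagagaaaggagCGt
Ranbp1: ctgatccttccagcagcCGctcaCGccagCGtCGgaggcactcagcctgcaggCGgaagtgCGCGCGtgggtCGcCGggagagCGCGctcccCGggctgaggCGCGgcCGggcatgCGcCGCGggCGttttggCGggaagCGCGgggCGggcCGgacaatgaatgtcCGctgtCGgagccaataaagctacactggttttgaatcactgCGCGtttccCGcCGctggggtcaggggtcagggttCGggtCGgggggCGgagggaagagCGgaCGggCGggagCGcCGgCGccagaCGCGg

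Promoters with few CpG also occurred at member pairs, though the peaks do not cover these windows in full. The histone genes H2ac15 and H2bc15 share a promoter, and the higher of its 2 member peaks scored 125.38. The H2bc15 window (chr13:21753826-21754125, plus strand, start of H2ac15 at base 87) held 3 CpG, and the H2ac15 window held 7. The promoter of Wrap53, a telomerase and Cajal body factor, next to the tumour suppressor Trp53 (chr11:69580201-69580500, minus strand, start of Trp53 at base 153, score 181.18) held 9 CpG. At the histone pair each peak covers only part of the window. At Wrap53 and Trp53 it covers none of it, so the bases printed are not those under the peak. The peak at Wrap53 and Trp53 ended 224 bp from the nearer start, with its midpoint 1070 bp into Wrap53. The chaperonin pair Hspd1 and Hspe1, a well-known head-to-head promoter, is shown as the contrast: the Hspd1 window (chr1:55088194-55088493, minus strand) held 39 CpG and neither gene had an induced-only peak at a border.
H2bc15: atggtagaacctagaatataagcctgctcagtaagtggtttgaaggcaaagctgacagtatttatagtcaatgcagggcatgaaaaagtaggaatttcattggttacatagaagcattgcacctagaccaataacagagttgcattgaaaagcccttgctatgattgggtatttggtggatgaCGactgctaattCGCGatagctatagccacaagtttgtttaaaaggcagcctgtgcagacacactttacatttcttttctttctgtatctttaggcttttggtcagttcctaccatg
Wrap53: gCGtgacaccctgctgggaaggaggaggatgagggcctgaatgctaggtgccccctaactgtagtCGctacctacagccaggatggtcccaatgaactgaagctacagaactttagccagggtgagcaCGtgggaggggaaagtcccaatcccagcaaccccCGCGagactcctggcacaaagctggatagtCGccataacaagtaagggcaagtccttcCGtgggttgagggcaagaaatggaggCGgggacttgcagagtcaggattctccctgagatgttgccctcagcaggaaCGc
Hspd1: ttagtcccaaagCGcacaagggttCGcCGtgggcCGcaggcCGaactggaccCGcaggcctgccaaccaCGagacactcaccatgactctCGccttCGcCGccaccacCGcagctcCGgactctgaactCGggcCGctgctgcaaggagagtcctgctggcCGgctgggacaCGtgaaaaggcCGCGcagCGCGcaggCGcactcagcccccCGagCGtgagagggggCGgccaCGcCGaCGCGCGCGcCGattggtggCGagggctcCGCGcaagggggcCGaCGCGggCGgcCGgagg

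The members reached 978 genes, which is 4.52% of the 21631 protein-coding genes. An induced-only peak of any kind lay within 1 kb of a border of 2890 genes, or 13.4%. Of those genes 43 lay at more than 1 member. Among the 2543 induced-only peaks at any gene border the members were 19.7% (18.2% to 21.3%), and the other 2042 peaks served 1 gene. The non-induced-only list had 20 such peaks among 10328 (0.194%, 0.118% to 0.299%) and 20 among its 291 border peaks (6.87%, 4.25% to 10.4%). Since the rule used the positions of both lists, these counts describe the choice and are no result. Near the 1 kb limit, Wdr24/Jmjd8/Stub1 was a member with its farthest border 994 bp away and Dnajc2/Psmc2 with 987 bp. Just outside it lay Pcnx3/Map3k11 at 1006 bp and Cep170/Sdccag8 and Prob1/Spata24 at 1016 bp.

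The strand of both genes could be read for 376 of the 2-gene members. In 272 of these (72.3%, 67.5% to 76.8%) the peak lay at 2 starts on opposite strands, the head-to-head arrangement. In 87 (23.1%, 18.97% to 27.7%) it lay at the start of one gene and the end of its neighbour. Starts of 2 genes on the same strand took 10 peaks and the ends of 2 genes took 7. The 15 non-induced-only peaks of the same kind with strand known were 4 at opposite starts, 4 at a start and an end, 1 at starts on the same strand and 6 at ends. At these counts the intervals are wide, for example 7.79% to 55.1% for opposite starts.

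The members were next set against close neighbouring pairs, those that are not nested. Of 2886 neighbouring pairs with facing borders at most 1 kb apart, 427 (14.8%) held a member at both facing borders, and 12 (0.416%) a non-induced-only peak. Where both strands were known, head-to-head pairs made up 41.7% of close pairs, tail-to-tail pairs 34.4% and head-to-tail pairs 23.9%. A member lay at 253 of 855 head-to-head pairs (29.6%, 26.6% to 32.8%). It lay at 64 of 489 head-to-tail pairs (13.1%, 10.2% to 16.4%) and at 13 of 704 tail-to-tail pairs (1.85%, 0.987% to 3.14%). These intervals do not overlap. In the non-induced-only list the same shares were 0.468% (4 pairs), 0.613% (3 pairs) and 0.426% (3 pairs), with overlapping intervals. These counts are too small to show whether orientations differ in that list. The orientation of a pair was no part of the rule, though each peak could count for several pairs. Another 838 close pairs had a strand that could not be read, and 97 of them (11.6%) held a member.

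**Figure D1:**
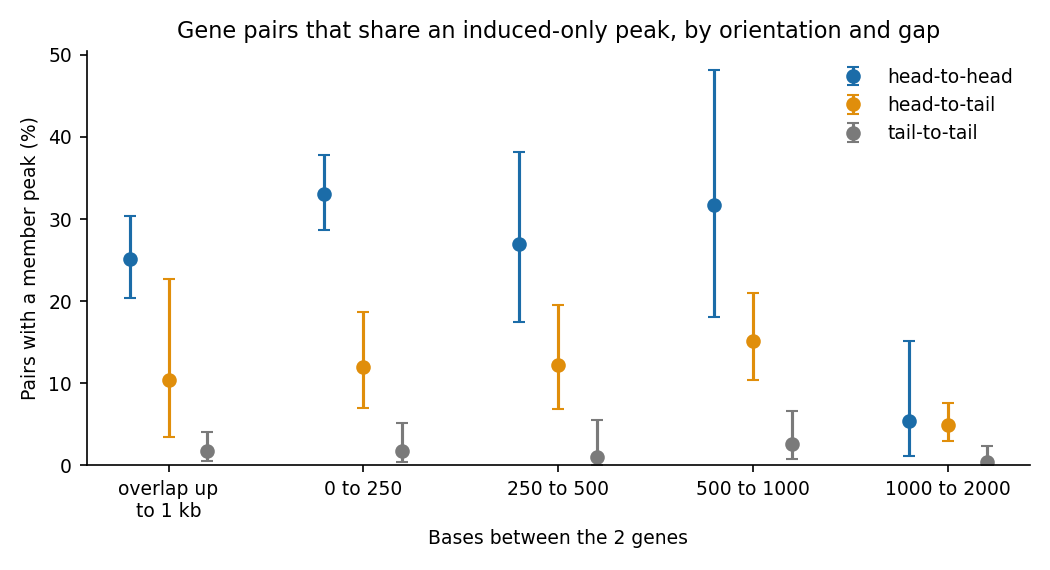
Share of neighbouring gene pairs with a member peak at both facing borders (vertical axis, %), by the number of bases between the genes (horizontal axis) and by orientation; points are shares and bars exact 95% intervals for counting error. Head-to-head pairs lie between 25.1% and 33.1% in the 4 classes up to 1 kb and at 5.45% in the class over 1 kb, while tail-to-tail pairs stay at or below 2.65%.

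The order of the orientations was the same at every gap up to 1 kb. Head-to-head pairs held a member in 25.1% where the genes overlapped by up to 1 kb, 33.1% at 0 to 250 bp apart, 26.9% at 250 to 500 bp and 31.7% at 500 to 1000 bp. Head-to-tail pairs ran from 10.4% to 15.1% and tail-to-tail pairs from 1.02% to 2.65% in these classes. At 1 to 2 kb the share was 5.45% for head-to-head pairs and 4.86% for head-to-tail pairs, where the 1 kb rule itself leaves less room for a peak that reaches both. Single borders gave a scale for these values. Among 7902 genes at least 5 kb long with no other gene border within 3 kb, an induced-only peak lay at the start of 876 (11.1%, 10.4% to 11.8%) and at the end of 28 (0.354%, 0.236% to 0.512%).

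Head-to-head members included pairs of genes with unrelated products. Ncapd2 codes for a condensin subunit and Mrpl51 for a protein of the mitochondrial ribosome; their peak was 2052 bp wide. Eif2b4, a subunit of the exchange factor for the translation initiator eIF2, shared a peak of score 233.67 with Snx17, a sorting nexin of endosomes. The peak of Dedd2, a death effector domain protein, and Zfp526, a zinc finger protein, scored 255.91. Zcchc3 and 6820408C15Rik shared one of 245.76. Srgap2, known for its part in neuronal development, and Fam72a shared one of 243.9, and the splicing factor Srsf7 and the SMN complex protein Gemin6 one of 212.74. Gm3448/Gm3435 (285.02) and the strand-unknown pair Gm3417/9030025P20Rik, the top member at 419.55, lie close together on chromosome 17 among predicted models that may be copies of each other, so their assignment is uncertain. Zscan29 and Tubgcp4, a component of the gamma-tubulin complex, overlap at their starts and shared a peak of 225.33.

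Peaks at a start and an end lay nearer to the start. In 67 of the 87 such members (77.0%, 66.7% to 85.4%) the midpoint was nearer to the start, with a median distance of 399 bp to the start and 830 bp to the end. The start lay inside the peak in 50 and the end in 21, with both in 14. In 78 (89.7%) the genes ran on the same strand, so that the first gene's end met the second gene's start. The class itself requires this of most neighbours that do not overlap. The highest was at the start of Zfp36l1, an RNA-binding protein that speeds decay of AU-rich mRNA, and the end of the predicted gene Gm52006, with a score of 280.33 and the midpoint 686 bp from the start and 1253 bp from the end. At the start of Zc3h10 and the end of Rpl41, a cytosolic ribosomal protein, the score was 239.37 with 683 and 785 bp. The end of Zmynd10, needed for assembly of ciliary dynein, and the start of Rassf1, a Ras-association domain tumour suppressor, had a peak of 235.02. An exception was the peak of 216.18 at the end of Acoxl and the start of Bcl2l11, the pro-apoptotic protein Bim. There the midpoint was 111 bp from the end and 325 bp from the start.

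The rarer classes had their own make-up. Of the 10 members at starts on the same strand, H3c15/H2ac19 (173.44), H4c18/H2ac24 (156.08) and H3c13/H2bc18 (148.46) join short histone genes. Gm21992/Rbm14 (167.05) joins gene models that overlap over a long span, as readthrough models do, so these count a single start region under 2 names. Of the 7 at ends, Bad, a pro-apoptotic BH3 protein, and Plcb3, a phospholipase C, had a peak of 187.69. Phox2a, a homeobox factor of autonomic neurons, and Inppl1, an inositol phosphatase, had one of 162.82, Eva1b and Sh3d21 one of 76.15, and Tmem120b and Rhof one of 73.52. Members at 3 genes were led by Impdh2, the rate-limiting enzyme of guanine nucleotide synthesis, with Ndufaf3, an assembly factor of respiratory complex I, and Dalrd3. That peak, of 397.98, covered a border of Ndufaf3 and Dalrd3 and lay 588 bp from the end of Impdh2. Next came Lrrc24/C030006K11Rik/Arhgap39 (195.96), Wdr46/B3galt4/Rps18 (156.05), the histone genes H2bc13/H2ac13/H3c10 (154.03) and Cyb5d1/Naa38/Tmem88 (151.73).

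In the head-to-head members the peak was often not centred between the starts. The 272 peaks lay at 265 different pairs, 7 of which held 2 peaks. The starts of these pairs were a median of 59 bp apart, with quartiles of -104 and 162 bp, where a negative value means that the genes overlap at their starts, as in 89 pairs. Both starts lay inside the peak in 137 (50.4%, 44.3% to 56.5%), 1 start in 69 and none in 66. The midpoint lay a median of 308 bp from the point halfway between the starts. It fell inside exactly 1 of the genes in 211 members (77.6%, 72.2% to 82.4%), at a median depth of 296 bp, inside both in 32 and inside neither in 29. Of the 211, the gene entered was the longer of the pair in 95 (45.0%, 38.2% to 52.0%), an interval that includes an even split. For 914 one-gene peaks at isolated starts, the midpoint was downstream of the start in 66.4% and within 150 bp of it in 15.4% (13.1% to 17.9%). In head-to-head members it was within 150 bp of the centre in 29.0% (23.7% to 34.8%). Such pairs offer 2 downstream sides, so the offset there has no single direction.

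**Figure D2:**
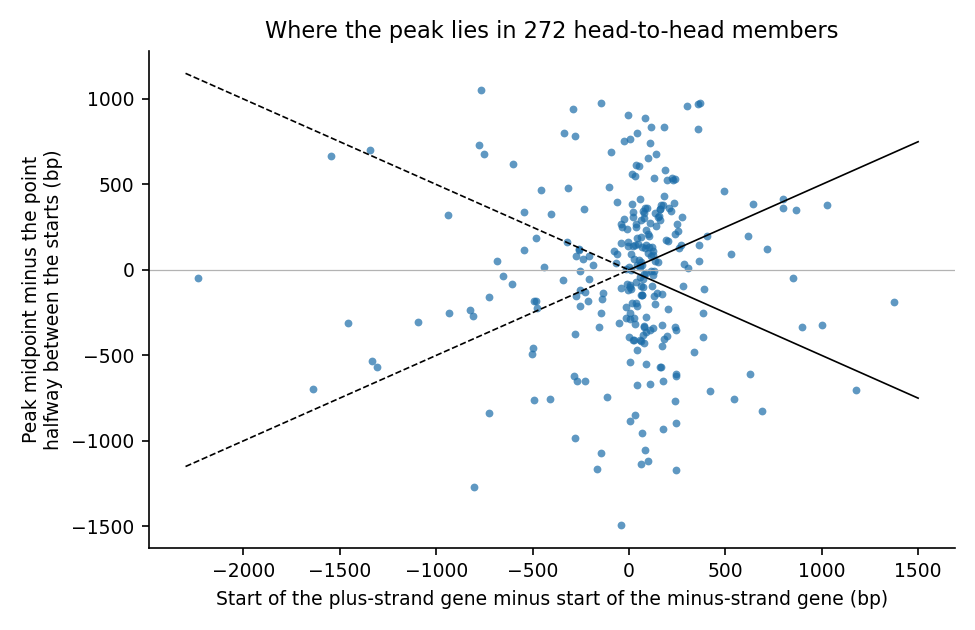
Each point is 1 of the 272 head-to-head member peaks: the distance between the starts (horizontal axis, bp, negative where the genes overlap at their starts) against the peak midpoint relative to the point halfway between them (vertical axis, bp, positive toward the plus-strand gene). Solid lines mark the starts where the genes do not overlap and dashed lines where they do; the starts of the 265 pairs are a median of 59 bp apart and the midpoints spread to both sides, a median of 308 bp from the centre.

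The score of each peak is the authors' own value, and in this paragraph it is compared within the induced list. Members had a median score of 81.8 (quartiles 60.4 and 114, range 50 to 420) against 77.0 for the 2042 one-gene peaks (59.3 and 105). A score of at least 100 was reached by 165 members (32.9%, 28.8% to 37.2%) and 590 one-gene peaks (28.9%, 26.9% to 30.9%). Members were slightly wider (median 884 bp, one-gene peaks 856 bp), and a wider peak reaches more borders. Within 5 classes of width the median scores of members and one-gene peaks were 54.9 and 55.7 under 600 bp, 63.1 and 61.4 at 600 to 800 bp, 80.4 and 82.5 at 800 to 1000 bp, 113 and 112 at 1000 to 1500 bp, and 188 and 175 from 1500 bp. Members were thus higher in 3 classes and lower in 2. The share of border peaks that were members ran from 16.7% to 23.9% over 5 width classes. By class, the median score was 80.3 at opposite starts, 81.5 at a start and an end, 92.7 at starts on 1 strand and 73.5 at ends. Every listed gene had a border inside the peak in 204 members (40.7%), and no listed gene did in 127 (25.3%). The gene spans overlapped in 142 of the 482 two-gene members (29.5%), and 45 members (8.98%) named a predicted or unnamed model.

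**Figure D3:**
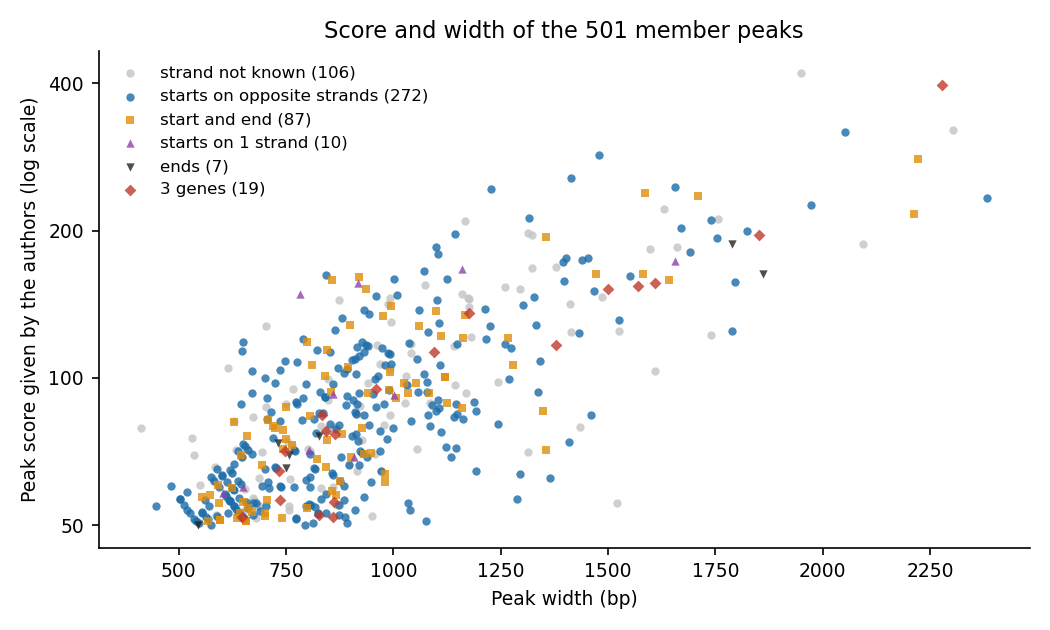
Peak score (vertical axis, authors' value, log scale) against peak width (horizontal axis, bp) for the 501 members, 1 point per peak, marked by the borders they touch. Scores run from 50 to 420 and rise with width; the classes lie over each other, and the ends class reaches 187.69.

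Members were found on every chromosome examined except X. Chromosome 7 had 49, chromosome 11 had 45, and chromosomes 2 and 17 had 40 each. These chromosomes also have many close pairs. A member lay at 14.4% of 298 close pairs on chromosome 7 and 12.9% of 302 on chromosome 11. On chromosomes 2 and 17 it lay at 14.4% of 243 and 17.7% of 203. Chromosome X had 0 members among 62 close pairs, a count of 0 that allows a share of up to 4.84% (3 counts of 62; exact upper limit 5.78%), below the 14.8% over all close pairs. Chromosome 13 had the highest share, with a member at 27 of 90 close pairs (30.0%, 20.8% to 40.6%). Without pairs that hold a histone gene it was 14 of 71 (19.7%, 11.2% to 30.9%). Over all chromosomes the share was 14.3% without such pairs. In all, 22 members held at least 2 histone genes, and 17 of these were on chromosome 13, where the largest histone cluster lies.

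Gene groups were read against the 4.52% of all protein-coding genes at a member. An induced-only peak of any kind lay at a border of 13.4% of all genes. That share was 65.5% for histones, 34.5% for RNA polymerase, 28.8% for cytosolic and 21.8% for mitochondrial ribosomal proteins, and 20.9% for DNA repair. It was 26.2% for proteasome subunits, 17.4% for complex I, 25.6% for Hox genes, 7.9% for aminoacyl-tRNA synthetases and 0.068% for olfactory and vomeronasal receptors. A high share below need not be particular to peaks at 2 genes. Replication-dependent histone genes, which package new DNA in S phase and often lie in divergent H2A and H2B pairs, had 32 of 58 at 22 members (55.2%, 41.5% to 68.3%). Examples were H3c15/H2ac19 and the divergent pair H2ac22/H2bc22 (162.19). Histone genes are near-identical copies, so reads may be split or lost among them. Genes that share a member are not independent, so the interval for this group is too narrow. Of RNA polymerase subunits 7 of 29 (24.1%, 10.3% to 43.5%) lay at a member, among them Polr3g with Mblac2 (108.22), Polr1c with Yipf3 (104.98), Polr3c with Rnf115 (91.63) and Polr2f with 1700088E04Rik (90.27). Of mitochondrial ribosomal proteins 13 of 78 (16.7%, 9.18% to 26.8%) did, with Mrpl57 beside the kinetochore gene Ska3 (161.47), Mrpl13 beside Mtbp (152.14) and Mrpl2 beside Cul7 (134.63).

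DNA repair genes had 13 of 86 at a member (15.1%, 8.30% to 24.5%). They included Dclre1b, a nuclease of interstrand crosslink repair and telomeres, with Ap4b1 (175.63), and Polk, a translesion polymerase, with Cert1 (137.69). Rad1, part of the DNA damage checkpoint clamp, shared its peak with Brix1 (132.32), and Nthl1, a base excision glycosylase, with Tsc2 (101.0). Cytosolic ribosomal proteins had 11 of 80 (13.7%, 7.07% to 23.3%), including Rpl41, Rps18, Rps28 with Ndufa7 (93.34) and Rpl37 with Card6 (84.12). Of these lists, complex I with 4 of 46 (8.70%, 2.42% to 20.8%), proteasome subunits with 3 of 42 (7.14%, 1.498% to 19.5%) and aminoacyl-tRNA synthetases with 1 of 38 (2.63%, 0.0666% to 13.8%) had intervals that include 4.52%. Their members were Ndufaf3, Ndufa7, Ndufs1 with Eef1b2 (84.53) and Ndufa2 with Ik (52.18), then Psmc2, Psmb3 with Pcgf2 (73.96) and Psmd13, and Vars (104.69). No Hox gene of 39 lay at a member, which allows a share of up to 7.69% by 3 counts of the total (exact upper limit 9.03%), though 10 had an induced-only peak at a border. The Hox interval thus also includes 4.52%. No olfactory or vomeronasal receptor gene of 1465 lay at a member, which allows up to 0.205% by the same rule (exact upper limit 0.252%).

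Well-studied head-to-head pairs were members in 4 of 20 cases (5.73% to 43.7%). That interval includes the 29.6% of all close head-to-head pairs with a member. For some of the 20, such as Prkdc/Mcm4, the strand could not be read, so their orientation was not checked here. Among the 4 with a member, Ppat and Paics, enzymes of purine synthesis, shared a peak of 117.5. The sirtuin gene Sirt3 and Psmd13 shared one of 56.38, and Wrap53 and Trp53 the one described above. The collagen pair Col4a1/Col4a2 had a peak of 230.93 that overlapped a non-induced peak and so is no member; it is one of 6 such shared peaks at 2 genes. No member lay at Hspd1/Hspe1, Atm/Npat, Tbp/Psmb1, Surf1/Surf2, Prkdc/Mcm4, Mrps12/Sars2, Tk1/Afmid, Recql4/Lrrc14, Brca1/Nbr1, Fen1/Tmem258, Dtx3l/Parp9, Tap1/Psmb9, Hars/Hars2, Col4a3/Col4a4 or Bcs1l/Zfand2b, the last of which are not neighbours in the gene table. Among the highest non-induced-only peaks at 2 genes were those at Arhgdig/Rgs11 (113.98), Zbtb48/Tas1r1 (99.15), Capn7/Sh3bp5 (78.79) and 1110059G10Rik/Kif15 (71.61), pairs that held no member.

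Promoter sequence was no part of the rule. The promoter values cover the 253 close head-to-head pairs with a member, whose genes are not nested and lie at most 1 kb apart. A promoter window was found for 448 of their 506 genes and for 1054 of 1190 genes of close head-to-head pairs without an induced-only peak. The CpG ratio, which is the number of CpG over that expected from the C and G of the window, had a median of 0.876 at the pairs with a member (quartiles 0.749 and 0.998). It was 0.833 at head-to-head pairs without a peak, 0.813 at 1310 genes with a one-gene peak at their start and 0.585 over the 14919 promoters in the table. A ratio of at least 0.6, usual for CpG islands, was found in 93.1% of member promoters (90.3% to 95.3%). It was found in 84.8% (82.5% to 86.9%) of those without a peak, 83.6% (81.5% to 85.5%) of those with a one-gene peak and 48.9% of the whole table. The 2 windows of a pair overlap, so genes of a pair are not independent and these intervals are too narrow.

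Pairs and isolated starts were compared within classes of CpG ratio. At a ratio of 0.8 to 1.0 an induced-only peak lay at either start of 105 of 294 head-to-head pairs (35.7%, 30.2% to 41.5%) and at 293 of 1353 isolated starts (21.7%, 19.5% to 23.9%). At 0.6 to 0.8 the shares were 23.6% (17.9% to 30.1%) and 17.97% (15.96% to 20.1%), and at 1.0 or more 35.3% (26.7% to 44.8%) and 22.7% (19.1% to 26.6%). A pair has 2 starts. If each took a peak independently at the rate of isolated starts, at least 1 would do so in 32.7%, 38.6% and 40.3% of pairs at 0.6 to 0.8, 0.8 to 1.0 and 1.0 or more. In these 3 classes the measured shares of pairs lay above those of 1 isolated start and below those of a pair of independent starts, in the upper 2 classes with intervals that include the latter. At 0.4 to 0.6 the order was the same, with 15.6% of 45 pairs (6.49% to 29.5%), 9.86% of isolated starts and 18.7% for independent starts. Under 0.4 it was not: 3 of 17 pairs (17.6%, 3.799% to 43.4%) had a peak, against 1.46% of isolated starts and 2.89% for independent starts. Where starts lie close together, a single peak within 1 kb of one is nearly always within 1 kb of the other by position alone.

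**Figure D4:**
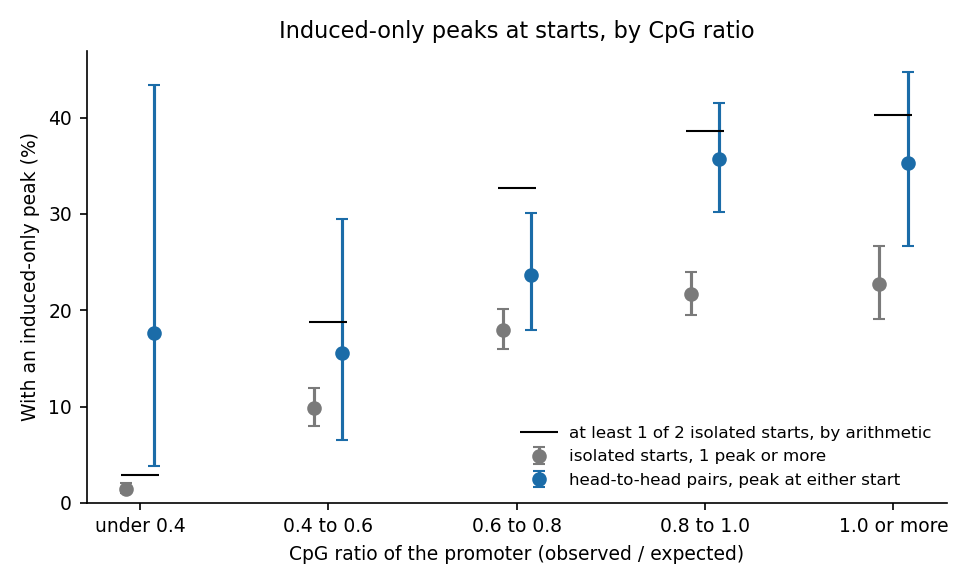
Share with an induced-only peak within 1 kb (vertical axis, %) by CpG ratio of the promoter (horizontal axis) for isolated starts and for close head-to-head pairs (mean ratio of both promoters, peak at either start); bars are exact 95% intervals for counting error, and black dashes give the share for at least 1 of 2 independent isolated starts. Isolated starts rise from 1.46% under 0.4 to 22.7% at 1.0 or more, and pairs reach 35.7% at 0.8 to 1.0; the lowest class of pairs holds 17.

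Short motifs were counted on both strands of the same windows, without regard to overlap with each other. CCGGAAG, the core of ETS-family sites, was present in 33.3% of head-to-head member promoters (28.9% to 37.8%) and 25.7% (23.1% to 28.5%) of those of head-to-head pairs without a peak. It was present in 15.2% (13.3% to 17.3%) of promoters with a one-gene peak and 12.3% of all. Taking a pair as the unit, it occurred in 85 of 198 pairs with a member (42.9%, 35.9% to 50.1%) and 161 of 468 without (34.4%, 30.1% to 38.9%), and these intervals overlap. GGGCGG, the GC box, was in 66.3% of member promoters, 66.7% of those without a peak, 73.7% of one-gene promoters and 47.0% of all. TATAAA was in 5.36%, 4.84%, 7.02% and 14.02% in the same order, and CCAAT in 42.4%, 40.7%, 38.5% and 40.1%. GCATGCGC, an NRF1-like sequence, was in 4.24% and 6.36% of head-to-head promoters with and without a member, and TGACGTCA in 4.46% and 3.70%, with 3.83% and 2.46% of all. Of the promoters printed above, Mrpl51 and Plekhj1 hold GGGCGG and CCGGAAG, Ranbp1 holds GCATGCGC, and H2bc15 holds TATAAA and CCAAT. A match to these letters is a description and not a site.

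Members differed from one-gene peaks in their other neighbours. A border of a long non-coding RNA gene lay within 1 kb of 22 members (4.39%, 2.77% to 6.57%) and of 357 of the 2042 one-gene peaks (17.5%, 15.9% to 19.2%). The rule already places at least 2 protein-coding genes beside each member, which leaves less room there for another gene. How much of the difference follows from the rule was not tested.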

How the data were processed

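Per the submitters' processing notes, the mm10 build and Bowtie2 (version not stated) were used. The peak names show MACS as the authors' caller, per the names in the files; its version, threshold and input handling are not stated in the sources used here. The 2 deposited lists hold positions and a score per peak, which is the authors' value with a formula that is not stated; it was used within a list, and in 1 alternative as a common limit for both. Groups came from the titles and induction labels.

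The members, gene lists, motifs and rules were chosen with earlier results of these data known, and the motifs after the peaks were seen. Genes came from RefSeq GRCm38.p6 (mm10 coordinates), 21631 protein-coding genes on chromosomes 1 to 19 and X. That table has no strand, so strand was read from the RefSeq promoter table of 300-base windows, which matched 17274 genes, with 833 of the 978 member genes; none of chromosome 18 had a window. The promoter used for a gene started within 500 bp of its outer start. It was matched for 83.6% of isolated genes and 88.5% of genes of close head-to-head pairs, and the whole table stands for its 14919 matched promoters only. Neighbouring pairs are consecutive genes, not nested, with facing borders at most 1 kb apart.

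Named are Kdm2b, the 12 highest members, the 4 highest per arrangement, the 5 highest at 3 genes, up to 4 per gene list, the listed head-to-head pairs, the 3 nearest to each side of the limit and the 5 highest non-induced-only peaks. Srsf7, Gemin6 and the promoters of Plekhj1, Ranbp1 and H2bc15 were chosen after their values were seen. Some genes that the rule takes are left out of the text. The alternatives were windows of 500 bp and 5 kb, distance from the peak midpoint, sharing only from 50% overlap of the shorter peak, a score limit, no predicted models and no overlapping genes. With simulated peaks laid over both facing borders of close pairs that do not overlap, 200 of 200 planted pairs were recovered. Such peaks test neither the 1 kb limit nor overlapping genes. On the real lists bedtools 2.31.1 found the same 501 members. Scripts ran in Python 3.11.15 with pandas 2.3.3, SciPy 1.17.1, matplotlib 3.10.9 and numpy 2.4.6.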

Additional observations from a re-analysis of the deposited data

How the results depend on the processing

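Of 35 recomputed values (5 results under 7 alternatives), 25 kept within their limits and 10 moved. Only the score difference could change direction, and it did not. With a window of 5 kb there were 1027 members in place of the number reported; they were 30.5% of border peaks in place of 19.7%, and 21.03% of close pairs in place of 14.8% held one. In that setting tail-to-tail pairs reached 11.2%. With a window of 500 bp 12.4% of all close pairs and 26.4% of head-to-head pairs (29.6% in the report) held a member, and with distance from the midpoint 12.7% of all close pairs did. Without overlapping genes, members were 14% of border peaks. With only peaks that reach the joint median of both lists (61.6), a member lay at 11.2% of all close pairs and 21.5% of head-to-head pairs, and the median score of members exceeded that of one-gene peaks by 0.725 in place of 4.78. In each setting, among pairs of known strand, head-to-head pairs had the highest share and tail-to-tail pairs the lowest. The small score difference has no replicate error, and depth sets what could be called in either list. No paired analysis was possible because each condition has 1 list.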
